A study of Mus musculus with 18 samples.

Results

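The genes described here are Cdkn1a, Mdm2, Ccng1, Btg2, Bax, Bbc3, Gdf15, Phlda3, Trp53inp1 and Gadd45a, 10 genes known as targets of the tumour suppressor p53. They were followed in mouse liver through each probe set that the array's annotation gives to a single gene of that symbol. This found 15 of the 45101 probe sets, for 8 of the 10 genes, and each probe set was kept on its own. No probe set was listed under Bax or Gdf15 in the annotation used, so these genes were not analysed here, and neither was Trp53, the gene of p53 itself. Of the 15 probe sets, 14 were bright enough to be tested. The exception was Mdm2 1457929_at, whose signal lay between 0.957 and 26.0 and whose mean log2 value of 4.72 was under the limit of 4.98.

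Total RNA from livers of male mice had been hybridized to 18 Affymetrix Mouse430_2 arrays, with 6 groups of 3. Hmgn1-/- mice (KO) lack HMGN1, a nucleosome-binding chromatin protein, and Hmgn1+/+ mice (WT) carry it. The groups were KO and WT livers with N-nitrosodiethylamine (DEN), KO and WT livers with saline, and KO and WT livers collected at 4 weeks without an injection. DEN was injected once per the labels' protocol, at 10 µg per g of body weight and an age of 4 weeks, and the injected mice were labelled 12 weeks. It is not clear from the labels whether these 12 weeks count from birth or from the injection, so a difference of injected from 4-week livers holds the animals' age as well as the injection. The genotypes descended from the same heterozygous crosses and were then bred as separate homozygous lines, so Hmgn1 and other differences between the lines cannot be told apart. Whether the arrays of a group stand for separate animals is not stated, and p-values then measure only the spread between arrays, which may be technical. In whole liver, fewer cells of a type and less RNA per cell cannot be told apart.

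p53 is a transcription factor that is kept low in resting cells because MDM2, the product of one of its own targets, marks it for destruction. DNA damage stabilises p53, which then raises genes that halt the cell cycle, limit p53 itself or push cells towards death. DEN is a liver carcinogen that hepatocyte cytochromes P450 turn into a DNA-ethylating agent, and hepatocytes are known to raise p53 targets within days of such damage. The injected livers here were collected weeks after the injection.

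Among the genes with a measured probe set, Cdkn1a encodes p21, an inhibitor of cyclin-dependent kinases, and Btg2 encodes an antiproliferative partner of the mRNA deadenylation complex. Gadd45a encodes a growth arrest protein that stress induces. Mdm2 encodes the ubiquitin ligase of p53, and Ccng1 encodes cyclin G1, which brings a phosphatase to MDM2. Bbc3 encodes the BH3-only death protein PUMA, Phlda3 a repressor of AKT, and Trp53inp1 a stress protein that promotes p53-dependent death and autophagy. On build GRCm38.p6 of the mouse genome, Cdkn1a lies on chromosome 17 from 29090979 to 29100722, Mdm2 on chromosome 10 from 117688875 to 117710758, Ccng1 on chromosome 11 from 40748552 to 40755309 and Gadd45a on chromosome 6 from 67035096 to 67037407. Btg2 lies on chromosome 1 from 134074865 to 134079155 and Phlda3 on the same chromosome from 135766085 to 135769134. Bbc3 lies on chromosome 7 from 16308398 to 16318334, and Trp53inp1 on chromosome 4 from 11156441 to 11174379.

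The start regions of these genes were read from RefSeq's table for GRCm38.p6, which gives windows of 300 bases, from 250 before to 50 after the start. The table held 13 windows of 9 of the 10 genes, and Trp53inp1 was not among them. Each window was searched for the p53 half-site consensus of 10 bases, a palindrome that reads the same on both strands. A window of each of Cdkn1a, Mdm2, Ccng1, Bax and Gadd45a held it, against 2582 of 27025 genes in the table (9.55%), and no window of Btg2, Bbc3, Gdf15 or Phlda3 did. Cdkn1a alone of these genes held a pair of half-sites close enough to count as a full site (up to 13 bases between them), which 20 of the 27025 genes did (0.074%). The windows of the 4 measured genes with a match are shown because Cdkn1a and Ccng1 had the called differences described below and Mdm2 and Gadd45a had none. Capitals mark the half-sites. In the windows shown, the first half-site starts 73 bases before the start for Cdkn1a (position -73), at -186 for Mdm2, -185 for Ccng1 and -40 for Gadd45a. Cdkn1a had another window in the table, for another start (chr17:29093519-29093818), and that window held no half-site. A match describes the letters of the window and is not evidence of binding.
Cdkn1a, chr17:29090729-29091028, plus strand: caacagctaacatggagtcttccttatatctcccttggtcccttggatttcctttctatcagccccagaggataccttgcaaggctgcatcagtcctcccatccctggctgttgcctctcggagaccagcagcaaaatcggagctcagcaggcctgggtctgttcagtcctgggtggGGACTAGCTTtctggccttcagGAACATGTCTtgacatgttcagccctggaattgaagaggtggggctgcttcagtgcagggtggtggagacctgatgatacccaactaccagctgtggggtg
Mdm2, chr10:117710709-117711008, minus strand: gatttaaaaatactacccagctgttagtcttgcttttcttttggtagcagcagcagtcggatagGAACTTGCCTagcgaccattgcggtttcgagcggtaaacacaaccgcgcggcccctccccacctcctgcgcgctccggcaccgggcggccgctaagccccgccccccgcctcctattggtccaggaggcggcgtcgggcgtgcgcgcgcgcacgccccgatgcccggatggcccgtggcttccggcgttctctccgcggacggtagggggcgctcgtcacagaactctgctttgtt
Ccng1, chr11:40755237-40755536, minus strand: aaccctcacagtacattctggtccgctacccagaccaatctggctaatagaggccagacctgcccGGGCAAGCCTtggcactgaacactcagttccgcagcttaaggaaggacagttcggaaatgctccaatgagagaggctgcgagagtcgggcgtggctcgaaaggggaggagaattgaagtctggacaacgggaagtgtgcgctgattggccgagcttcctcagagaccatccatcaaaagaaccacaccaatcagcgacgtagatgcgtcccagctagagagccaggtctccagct
Gadd45a, chr6:67037358-67037657, minus strand: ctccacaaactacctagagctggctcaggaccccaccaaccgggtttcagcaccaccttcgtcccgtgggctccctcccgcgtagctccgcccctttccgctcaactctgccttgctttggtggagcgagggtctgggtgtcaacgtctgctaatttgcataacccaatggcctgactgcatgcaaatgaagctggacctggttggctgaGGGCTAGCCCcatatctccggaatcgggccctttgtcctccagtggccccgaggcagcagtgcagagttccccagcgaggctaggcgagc

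Signals are MAS5 intensities on a linear scale, scaled so that the trimmed mean of each array was 150, and differences are log2 differences of signal + 16. The 6 arrays with saline differed as a block from the remaining 12. On them the brightest probe set reached 16720 to 21752, against 46967 to 60173 elsewhere, and summed hybridization controls, which are added RNAs of bacterial and phage genes, were 15756 to 21542, against 79615 to 125880. The saline groups and this difference between arrays cannot be told apart, so values after quantile normalization are given beside called differences of named genes from saline and of saline from 4 weeks. Pairs of arrays within a group had r of 0.97044 to 0.98839 in log2 over the probe sets bright enough to be tested. The Gapdh 3' to 5' ratio, a sign of RNA integrity, was 0.907 to 0.937 on KO DEN, 1.02 to 1.13 on WT DEN, 1.21 to 1.41 on KO saline, 1.19 to 1.33 on WT saline, 1.35 to 1.70 on KO 4-week and 1.13 to 2.19 on WT 4-week arrays. Hmgn1 was tested with 3 probe sets, and KO minus WT differences were between -0.15 and 0.06 with adjusted p-values of 0.577 or more. Which part of the gene was deleted is not given in the labels, so these probe sets do not check the genotype. Hepatocyte markers were the brightest of the cell type lists (Alb, the serum albumin gene, 13600 to 41800), while Cd3e and Nkg7 of lymphocytes and Krt19 and Krt7 of bile duct cells were under the brightness limit.

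**Figure D1:**
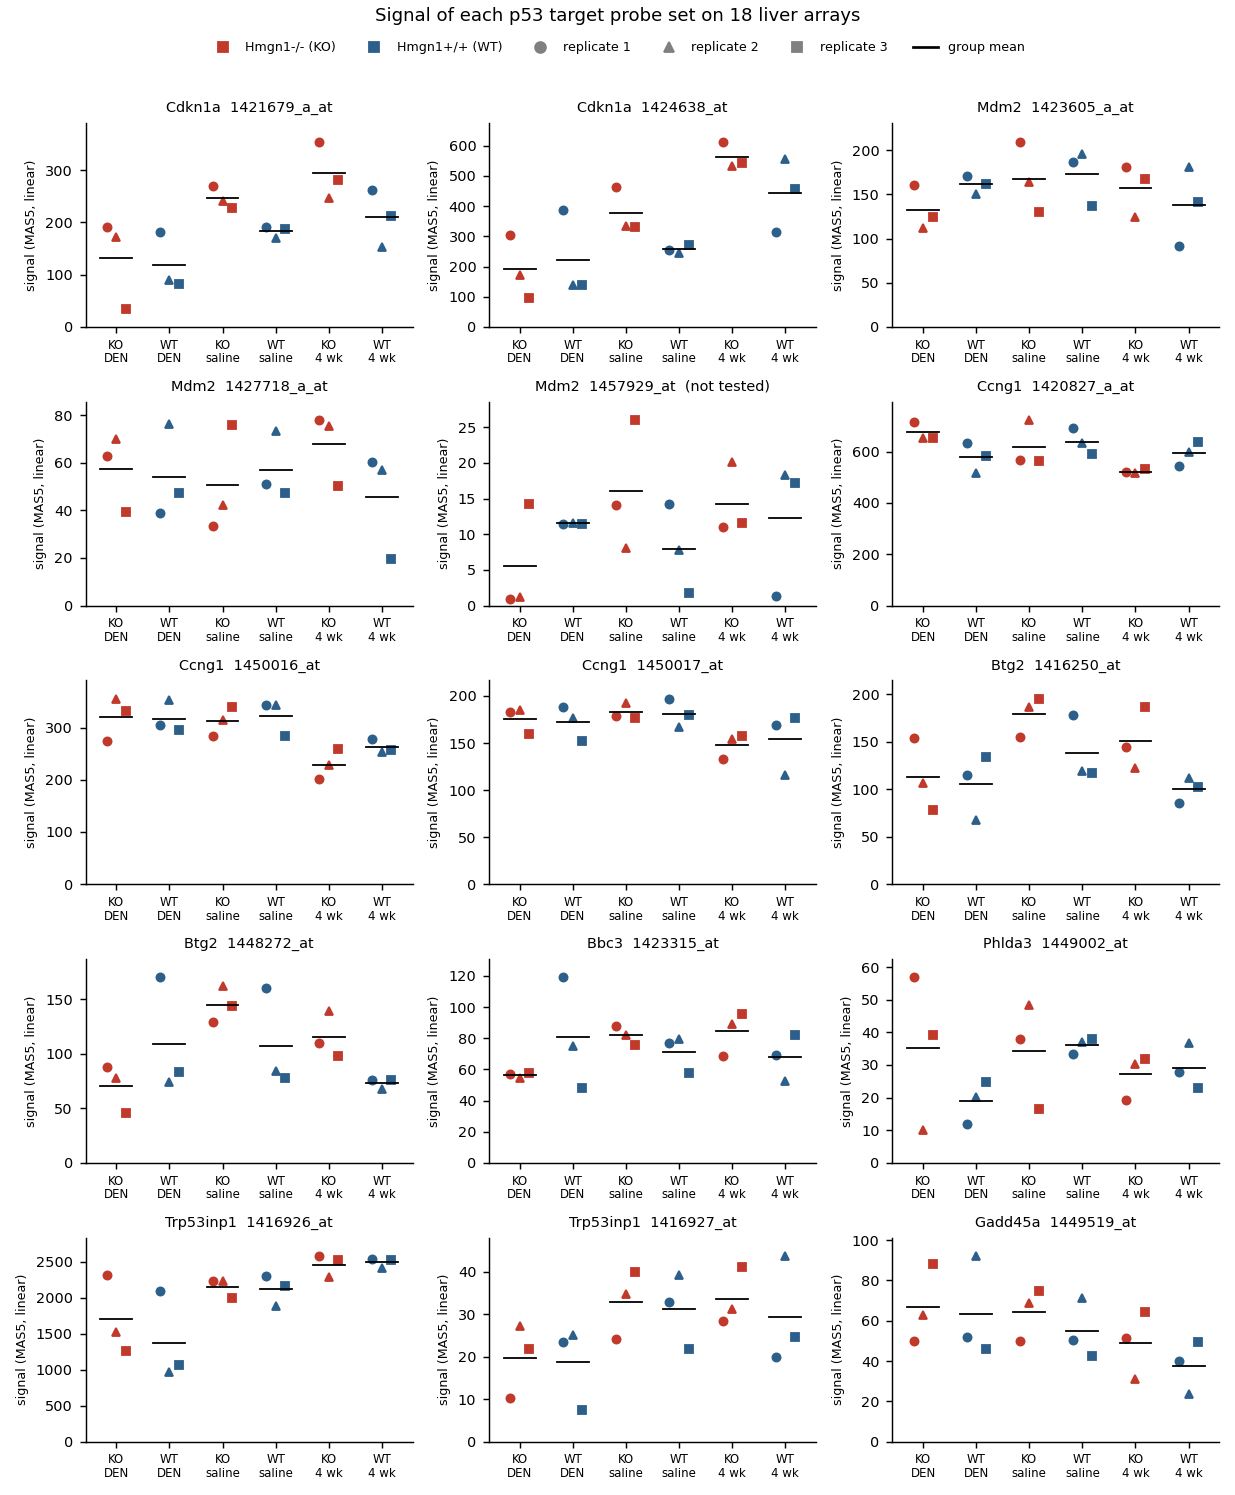
Signal (linear MAS5 units, vertical axis) of each of the 15 probe sets on 18 arrays, with 3 arrays for each of 6 groups along the horizontal axis. Red marks KO and blue WT, the marker shape gives the replicate number and the bar is the group mean. In Cdkn1a 1424638_at, replicates 2 and 3 of both DEN groups lie at 97.1 to 172, below each of the other arrays.

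Cdkn1a, Btg2 and Trp53inp1 supplied the lower calls in DEN livers, and Ccng1 supplied the higher ones. Over the 14 tested probe sets, DEN minus saline in KO livers had 3 called (adjusted p under the threshold of 0.05), all lower, where 15.1% of the 27022 tested probe sets were called and 8.65% were called lower. Their median difference was -0.34, against -0.09 over all tested probe sets, and 5 of the 14 had DEN arrays below each saline array, against 21.1% of all. DEN minus saline in WT livers had 1 called, lower, against 6.54% of all in either direction and 3.13% lower, and the medians were -0.11 and -0.02. DEN minus 4 weeks in KO livers had 2 higher and 2 lower, against 8.24% of all in either direction (3.53% higher and 4.71% lower), and the medians were -0.31 and -0.02. DEN minus 4 weeks in WT livers had 1 lower, against 4.4% of all in either direction and 2.44% lower, with medians of 0.09 and 0.03. Saline minus 4 weeks had 1 higher in KO livers, against 9.94% of all in either direction and 5.09% higher. In WT livers it had 0 called, against 8.26% of all, with 2 of the 14 at an unadjusted limma p under 0.05 (20.6% of all). DEN livers share their arrays between these comparisons, as do the controls, so the comparisons are not independent of each other. Positions of DEN or saline arrays wholly above or below 4-week arrays are given below for single genes. The share of all tested probe sets with such a position against 4 weeks is not given, so they only describe the signals.

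**Figure D2:**
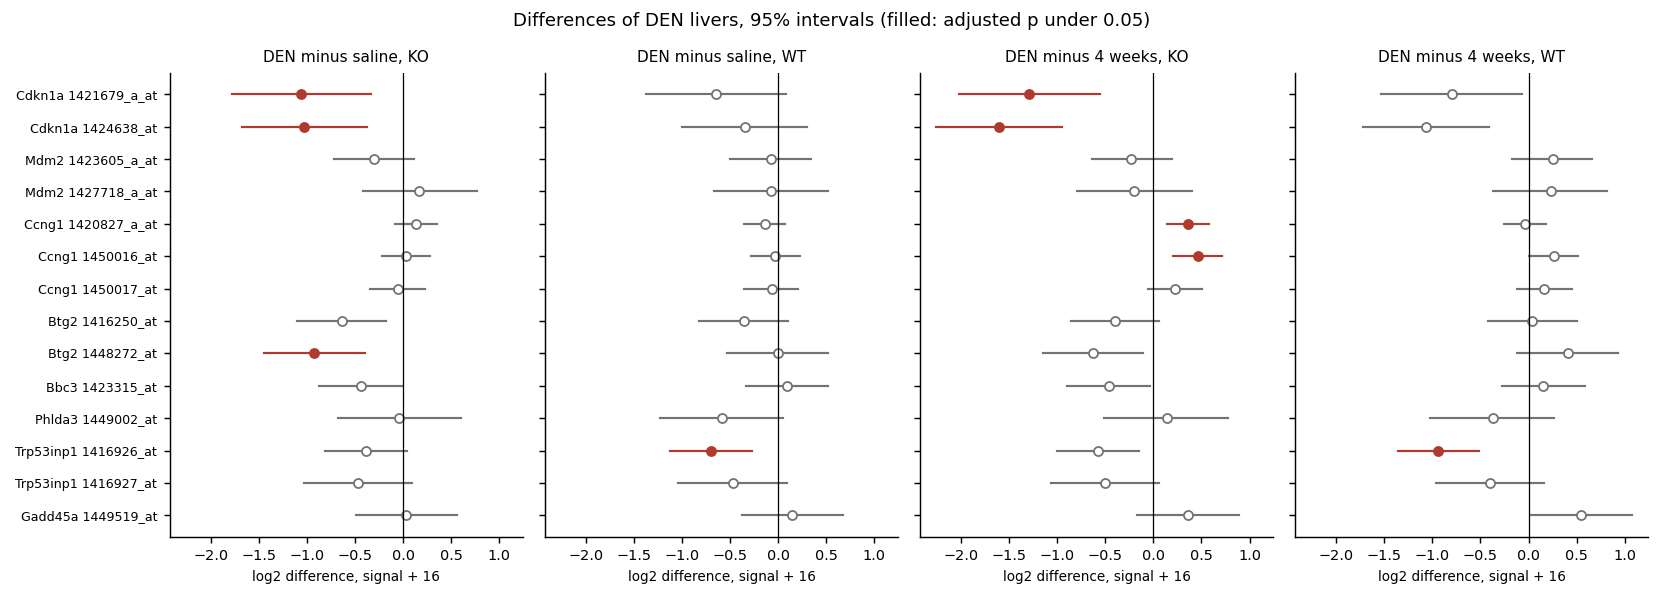
Log2 differences of signal + 16 (horizontal axis) of the 14 tested probe sets (vertical axis) for DEN minus saline and DEN minus 4 weeks in KO and WT livers. Points are limma estimates, bars 95% intervals, and filled red points have an adjusted p under 0.05. Both Cdkn1a probe sets lie near or below -1 in the KO panels, and 2 Ccng1 probe sets are above 0 in KO livers against 4 weeks.

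Cdkn1a, the gene of the cell cycle inhibitor p21, was lower in KO livers with DEN than in both KO control groups, and both of its probe sets passed the test in both comparisons. On 1424638_at the signals were 306, 172 and 97.1 in KO DEN livers, against 463, 335 and 330 in KO saline livers and 614, 533 and 542 in KO 4-week livers. The 3 groups did not overlap. In WT livers they were 387, 140 and 138 with DEN, against 254, 246 and 270 with saline and 314, 557 and 456 at 4 weeks. The WT groups overlapped because replicate 1 with DEN was above each saline array and above replicate 1 at 4 weeks, while the other DEN arrays were below both controls.

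On 1421679_a_at the KO signals were 191, 173 and 34.7 with DEN, against 270, 241 and 227 with saline and 355, 247 and 282 at 4 weeks. In WT livers they were 181, 89.7 and 82.1 with DEN, against 191, 171 and 187 with saline and 263, 153 and 213 at 4 weeks. The DEN arrays of KO livers were again below every KO control array, and those of WT livers overlapped both controls. KO DEN replicate 3 was the lowest of the 18 arrays for both probe sets.

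Against saline, Cdkn1a fell by 1.03 ± 0.31 in KO livers on 1424638_at (log2 difference ± SE, 2.04-fold, adjusted p = 0.0300) and fell by 1.06 ± 0.35 on 1421679_a_at (2.08-fold, adjusted p = 0.0453). After quantile normalization the differences were -0.97 (adjusted p = 0.0528) and -0.96 (adjusted p = 0.0835), which ends both calls. In WT livers the differences from saline were -0.35 (95% interval -1.0 to 0.30, adjusted p = 0.606) and -0.65 (-1.38 to 0.08, adjusted p = 0.326). The KO call on 1424638_at was also lost without KO DEN replicate 2 (-1.02, adjusted p = 0.0727), KO DEN replicate 3 (-0.66, adjusted p = 0.175) or KO saline replicate 1, 2 or 3 (-0.88, -1.10 and -1.11, adjusted p = 0.128, 0.0509 and 0.0551). That on 1421679_a_at was lost without KO DEN replicate 3 (-0.40, adjusted p = 0.285) or KO saline replicate 1, 2 or 3 (-0.99, -1.07 and -1.11, adjusted p = 0.131, 0.0921 and 0.0909).

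Against 4 weeks, Cdkn1a fell by 1.61 ± 0.31 in KO livers on 1424638_at (3.04-fold, adjusted p = 0.00441) and fell by 1.29 ± 0.35 on 1421679_a_at (2.45-fold, adjusted p = 0.0260). The difference on 1424638_at was called in each of 11 other settings and in each of 6 fits that left out a KO DEN or KO 4-week array (-1.99 to -1.23, highest adjusted p = 0.0283). That on 1421679_a_at was lost without KO DEN replicate 3 (-0.64, adjusted p = 0.102), KO 4-week replicate 1 (-1.16, adjusted p = 0.114) or KO 4-week replicate 3 (-1.31, adjusted p = 0.0710). In WT livers the differences from 4 weeks were -1.07 (95% interval -1.72 to -0.41, adjusted p = 0.0554) and -0.80 (-1.53 to -0.07, adjusted p = 0.211), and neither was called. Saline minus 4 weeks was -0.58 and -0.23 in KO livers and -0.71 and -0.15 in WT livers on the 2 probe sets in the same order, and none of these was called (adjusted p = 0.280, 0.750, 0.190 and 0.867). On 1424638_at each saline array was nevertheless below each 4-week array of its genotype.

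Trp53inp1, the stress protein gene, was the member with called differences in WT livers. On 1416926_at the WT signals were 2100, 964 and 1070 with DEN, against 2310, 1890 and 2160 with saline and 2540, 2410 and 2530 at 4 weeks. In KO livers they were 2320, 1520 and 1260 with DEN, against 2230, 2240 and 2000 with saline and 2580, 2290 and 2520 at 4 weeks. In both genotypes DEN replicates 2 and 3 were below every control array of that genotype, whereas replicate 1 was above at least 1 of them.

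In WT livers Trp53inp1 fell by 0.70 ± 0.20 against saline (1.62-fold, adjusted p = 0.0420, and -0.74 with adjusted p = 0.0423 after quantile normalization) and fell by 0.94 ± 0.20 against 4 weeks (1.91-fold, adjusted p = 0.0129). In KO livers the differences were -0.39 from saline (95% interval -0.81 to 0.04, adjusted p = 0.226) and -0.58 from 4 weeks (-1.0 to -0.15, adjusted p = 0.0852). The genotype difference with DEN minus that with saline was 0.31 (-0.29 to 0.92, adjusted p = 0.832), and that with DEN minus that at 4 weeks was 0.36 (-0.24 to 0.96, adjusted p = 0.618), so the responses were not shown to differ between genotypes. The WT call against saline was lost without WT DEN replicate 2 (-0.49, adjusted p = 0.205), WT DEN replicate 3 (-0.56, adjusted p = 0.179) or WT saline replicate 1, 2 or 3 (-0.64, -0.78 and -0.68, adjusted p = 0.156, 0.0699 and 0.111), and that against 4 weeks without WT DEN replicate 2 (-0.73, adjusted p = 0.0741) or 3 (-0.80, adjusted p = 0.0582). The other probe set, 1416927_at, was dim, with signals of 7.45 to 43.7, and had differences of -0.50 to -0.40 in the 4 comparisons of DEN livers, none of them called.

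Btg2, the antiproliferative gene, was lower with DEN than with saline in KO livers, where 1 of its 2 probe sets passed the test. On 1448272_at the KO signals were 87.9, 78.2 and 45.7 with DEN, against 129, 162 and 144 with saline and 110, 139 and 97.7 at 4 weeks. In WT livers they were 170, 74.0 and 82.9 with DEN, against 160, 84.5 and 77.6 with saline and 75.6, 67.8 and 76.2 at 4 weeks. The KO DEN arrays were below both KO control groups, whereas in WT livers replicate 1 was the highest array with DEN and with saline.

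Btg2 fell by 0.93 ± 0.25 on 1448272_at in KO livers against saline (1.90-fold, adjusted p = 0.0158, and -0.81 with adjusted p = 0.0444 after quantile normalization). The call was kept in each of 9 other settings and lost without KO DEN replicate 3 (-0.70, adjusted p = 0.0899) or KO saline replicate 2 (-0.85, adjusted p = 0.0608). Against 4 weeks the KO difference was -0.63 (95% interval -1.15 to -0.11, adjusted p = 0.130). In WT livers it was 0.00 from saline (-0.53 to 0.52) and 0.41 from 4 weeks (-0.12 to 0.93), with adjusted p-values of 0.999 and 0.396.

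On the other Btg2 probe set, 1416250_at, the KO signals were 154, 106 and 77.7 with DEN, against 155, 186 and 195 with saline and 144, 122 and 186 at 4 weeks. In WT livers they were 115, 67.6 and 134 with DEN, against 178, 119 and 117 with saline and 85.6, 112 and 102 at 4 weeks. The KO DEN arrays were again below each KO saline array, by a narrow margin for replicate 1. The difference from saline in KO livers was -0.64 (95% interval -1.10 to -0.18), which missed the threshold (adjusted p = 0.0551).

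Ccng1, the cyclin G1 gene, was higher in KO livers with DEN than at 4 weeks, and its signals in DEN and saline livers were close. On 1450016_at the KO signals were 274, 355 and 332 with DEN, against 284, 314 and 340 with saline and 201, 228 and 258 at 4 weeks. In WT livers they were 304, 352 and 295 with DEN, against 343, 343 and 283 with saline and 278, 253 and 257 at 4 weeks. In both genotypes the DEN arrays and the saline arrays were above each 4-week array.

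On 1420827_a_at the KO signals were 717, 654 and 654 with DEN, against 569, 723 and 562 with saline and 520, 517 and 531 at 4 weeks. In WT livers they were 634, 518 and 582 with DEN, against 693, 632 and 592 with saline and 545, 598 and 637 at 4 weeks. The WT groups overlapped, and the KO arrays of both injected groups were above the KO 4-week arrays. On the third probe set, 1450017_at, signals were 116 to 197 over all groups and no difference was called.

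Against 4 weeks, Ccng1 rose in KO livers with DEN by 0.46 ± 0.12 on 1450016_at (1.37-fold, adjusted p = 0.0239) and by 0.36 ± 0.10 on 1420827_a_at (1.28-fold, adjusted p = 0.0378). In KO livers with saline it rose by 0.43 ± 0.12 on 1450016_at (1.34-fold, adjusted p = 0.0275), and after quantile normalization the value was 0.40 (adjusted p = 0.0531), which ends the call. In WT livers the differences from 4 weeks on 1450016_at were 0.26 with DEN (95% interval 0.00 to 0.51, adjusted p = 0.254) and 0.28 with saline (0.03 to 0.53, adjusted p = 0.183). DEN minus saline on this probe set was 0.03 (-0.22 to 0.28) in KO livers and -0.03 (-0.28 to 0.23) in WT livers.

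In fits without 1 array the Ccng1 values kept their sign, but these calls were lost in many of them. Such fits have less power by construction. With DEN, the call on 1450016_at was lost without KO DEN replicate 2 or 3 (0.38 and 0.43, adjusted p = 0.113 and 0.0642) or KO 4-week replicate 1 or 2 (0.37 and 0.46, adjusted p = 0.128 and 0.0523), and that on 1420827_a_at was lost in each of 6 fits without a KO DEN or KO 4-week array (0.32 to 0.38, adjusted p = 0.0577 to 0.114). With saline, the call on 1450016_at was lost without KO saline replicate 2 or 3 (0.42 and 0.37, adjusted p = 0.0868 and 0.131) or KO 4-week replicate 1 or 2 (0.34 and 0.43, adjusted p = 0.147 and 0.0681).

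Mdm2, Bbc3, Phlda3 and Gadd45a had no called difference in any comparison. Mdm2 1423605_a_at, which reports the feedback ligase, had signals of 112 to 161 in KO DEN, 151 to 171 in WT DEN, 130 to 210 in KO saline, 137 to 196 in WT saline, 125 to 181 in KO 4-week and 92.1 to 181 in WT 4-week livers. Its 95% intervals for DEN minus saline were -0.72 to 0.11 in KO livers and -0.50 to 0.34 in WT livers. After quantile normalization these differences were -0.20 in KO and -0.03 in WT livers. Mdm2 1427718_a_at had signals of 19.7 to 77.9 over all groups, and its intervals for DEN minus saline were -0.42 to 0.77 in KO and -0.67 to 0.52 in WT livers. A rise with DEN over saline of more than 0.34 in log2 lay outside both intervals of 1423605_a_at but inside both of 1427718_a_at. Against 4 weeks the WT interval of 1423605_a_at was -0.17 to 0.66, so a rise of Mdm2 was not excluded.

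Bbc3, the PUMA gene, had signals of 57.1, 54.5 and 57.4 in KO DEN livers, against 87.9, 82.0 and 75.9 in KO saline livers and 68.5, 89.0 and 95.7 in KO 4-week livers. The KO DEN arrays were close together and below each KO control array, a position against KO saline that 21.1% of all tested probe sets held. The differences of -0.44 from saline and -0.46 from 4 weeks were not called (adjusted p = 0.174 and 0.18). In WT livers Bbc3 signals were 119, 75.1 and 48.1 with DEN, against 76.9, 79.7 and 57.5 with saline and 69.3, 52.8 and 81.8 at 4 weeks, so the WT DEN arrays spanned both controls. Gadd45a, the growth arrest gene, had signals of 46.2 to 92.1 in DEN, 42.7 to 74.8 in saline and 23.8 to 64.4 in 4-week livers, and its largest difference was 0.55 for DEN minus 4 weeks in WT livers (95% interval 0.02 to 1.08, adjusted p = 0.236). Phlda3, the AKT repressor gene, was dim, with signals of 10.0 to 56.8.

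The arrays of the DEN groups differed among themselves more than those of the control groups for Cdkn1a and Trp53inp1. The log2 SD of Cdkn1a 1424638_at was 0.76 in KO DEN and 0.80 in WT DEN livers, against 0.26 in KO saline, 0.06 in WT saline, 0.11 in KO 4-week and 0.41 in WT 4-week livers. For Trp53inp1 1416926_at it was 0.45 and 0.60 in KO and WT DEN livers, against 0.04 to 0.15 in the other groups. In both DEN groups replicate 1 was high. Its Cdkn1a 1424638_at signal was 2.28 times the mean of replicates 2 and 3 in KO and 2.79 times in WT livers, and the ratios were 1.67 and 2.07 for Trp53inp1 1416926_at and 1.42 and 2.17 for Btg2 1448272_at. For Ccng1 they were 0.797 and 0.942 on 1450016_at and 1.1 and 1.15 on 1420827_a_at. Replicate 1 was the highest array for 8 of the 14 probe sets in each DEN group (57.1%), against 30.7% of all tested probe sets in KO and 33.6% in WT livers. Replicate 3 of the KO 4-week group was likewise the highest for 8 of 14, against 33.3% of all, and replicate 1 of the WT saline group for 7 of 14, against 36.8% of all. The labels give no shared litter, day or batch for arrays of the same number.

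**Figure D3:**
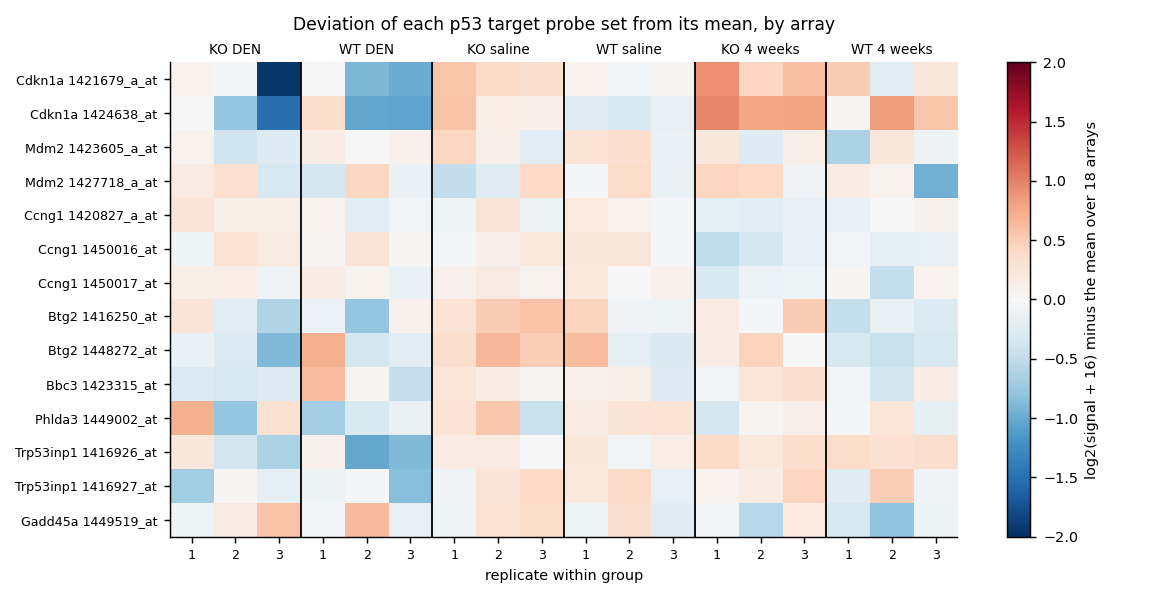
Deviation of log2(signal + 16) from each probe set's mean over 18 arrays (colour, red above and blue below the mean) for the 14 tested probe sets (rows) on each array (columns, by group and replicate). Cdkn1a 1424638_at and Trp53inp1 1416926_at are blue on replicates 2 and 3 of both DEN groups and close to white or light red on replicate 1, while Cdkn1a 1421679_a_at is close to white on KO DEN replicate 2 as well.

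Leaving out DEN replicate 1 moved calls in both directions. In WT livers without WT DEN replicate 1, Cdkn1a 1424638_at minus 4 weeks was -1.53 (adjusted p = 0.00309). In KO livers without KO DEN replicate 1, Trp53inp1 1416926_at was -0.63 against saline (adjusted p = 0.0421) and -0.82 against 4 weeks (adjusted p = 0.0178), and Btg2 1416250_at was -0.86 against saline (adjusted p = 0.0146). Without that array the call of Ccng1 1420827_a_at against 4 weeks was lost (0.32, adjusted p = 0.114), so the number called for DEN minus 4 weeks in KO livers was 4 with and without it. For DEN minus saline in WT livers the number was 1 with and without WT DEN replicate 1. The other numbers grew. For DEN minus saline in KO livers it was 3 with and 5 without KO DEN replicate 1. For DEN minus 4 weeks in WT livers it was 1 with and 2 without WT DEN replicate 1.

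Markers of Kupffer cells, the resident macrophages of liver, also differed between the DEN arrays, as did those of some other cells. The summed signal of the 8 marker genes (Csf1r, Cd5l, Vsig4, Clec4f, Tyrobp, Adgre1, Cd68 and Marco) was 4510, 6030 and 7170 on the KO DEN arrays in the order of their replicate numbers, against 4380, 4080 and 4770 on KO saline and 3720, 3760 and 3500 on KO 4-week arrays. In WT livers it was 4680, 5950 and 6470 with DEN, against 4890, 5800 and 5780 with saline and 5710, 5340 and 5580 at 4 weeks. Within each DEN group it was lowest on replicate 1, where Cdkn1a was highest. None of the 8 markers was listed at 0 on any array, and the lowest signal was 29.6, for Marco. Of the 8 genes, 7 rose in KO livers with DEN against 4 weeks, where 3.53% of all tested probe sets were called higher (median 0.72 over the list, against -0.02 over all tested), led by Tyrobp at 1.22, Vsig4 at 1.04, Cd68 at 0.80 and Adgre1 at 0.77. With saline against 4 weeks 1 of the 8 rose in KO livers, Tyrobp by 0.91 (0.88 after quantile normalization), where 5.09% of all were called higher. Its genotype difference with DEN minus that at 4 weeks was 1.25 (limma adjusted p = 0.0111), where 0.762% of all were called. With DEN against saline 2 of the 8 rose in KO livers, where 15.1% of all were called in either direction. They were Clec4f at 0.44 (0.46 after quantile normalization) and Csf1r at 0.29, which was 0.21 and not called after quantile normalization (adjusted p = 0.184). In WT livers 0 of 8 passed against 4 weeks or saline (medians 0.06 and 0.05), where 4.4% and 6.54% of all were called. In both, 0 had an unadjusted limma p under 0.05, against 19.2% and 19.5% of all. Of 6 stellate cell and fibroblast markers, Dcn, a matrix gene, rose in KO livers with DEN, by 0.46 against 4 weeks and by 0.37 against saline, where it was 0.25 and not called after quantile normalization (adjusted p = 0.0809). The summed signal of the 6 stellate cell and fibroblast markers was 4090, 3450 and 2770 on KO DEN replicates 1, 2 and 3. It was thus highest where Cdkn1a was highest, and on WT DEN arrays it was 2890, 2840 and 3340. Hepatocyte markers summed to 141000, 144000 and 135000 on KO DEN and 150000, 142000 and 132000 on WT DEN arrays. The part of RNA of these cell types in the Cdkn1a, Trp53inp1, Btg2 and Ccng1 differences was not tested.

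Of 6 hepatocyte markers tested, 2 fell in KO livers with DEN against 4 weeks, where 4.71% of all tested probe sets were called lower. They were Tat (tyrosine aminotransferase) at -1.17 and Hnf4a (a hepatocyte transcription factor) at -0.43. In WT livers 0 passed, against 4.4% of all, with 1 at an unadjusted limma p under 0.05 (19.2% of all). Against saline, 15.1% of all were called in KO and 6.54% in WT livers, in either direction. Of the hepatocyte markers 4 rose in KO and 5 in WT livers, with medians of 0.90 and 0.95. After quantile normalization these medians were -0.14 and 0.01 and 0 rose in either genotype. With saline against 4 weeks 6 fell in KO livers, among them Tat by 0.86 and Hnf4a by 0.52, and 4 fell in WT livers. There 9.94% of all in KO and 8.26% in WT livers were called. After quantile normalization 0 fell in either genotype, with Tat at -0.45 and Hnf4a at -0.23 in KO livers, and 1 rose in KO livers. Of 4 proliferation markers tested (Cdk1, Top2a, Ccna2 and Mki67), 0 were called by limma in any comparison of DEN livers, where up to 15.1% of all were called. At an unadjusted p under 0.05 there was 1 against saline in KO livers (28.4% of all) and 1 for KO minus WT with DEN (8.97% of all). Their summed signal was 125 to 189 in KO DEN and 127 to 143 in WT DEN livers, against 100 to 131 in KO saline, 91.8 to 141 in WT saline, 105 to 148 in KO 4-week and 96.8 to 136 in WT 4-week livers. These markers are dim, so a small change in dividing cells was not detectable.

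No p53 target probe set was called between the genotypes. With DEN, 0 of 14 passed KO minus WT, against 0.0074% of all tested probe sets, and 1 of 14 had an unadjusted limma p under 0.05 (8.97% of all). This was Ccng1 1420827_a_at, at 0.22 (95% interval 0.00 to 0.44, adjusted p = 0.547), the 1 probe set of the 14 with each KO array above each WT array, against 4.51% of all. For Cdkn1a with DEN the KO minus WT differences were -0.17 (-0.82 to 0.48) on 1424638_at and -0.01 (-0.74 to 0.71) on 1421679_a_at, and these wide intervals hold differences in either direction.

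With saline, 0 of 14 passed, against 0.0111% of all, and 0 of 14 had an unadjusted p under 0.05. Both Cdkn1a probe sets were higher on each KO saline array than on each WT saline array, with differences of 0.51 on 1424638_at (95% interval -0.14 to 1.16, adjusted p = 0.986) and 0.39 on 1421679_a_at (-0.33 to 1.12, adjusted p = 0.993). Such a position, KO above WT without overlap, was held by 2 of the 14 and by 10.9% of all tested probe sets.

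At 4 weeks, 0 of 14 passed, against 2.26% of all, and 2 of 14 had an unadjusted p under 0.05 (14.9% of all). These were the Btg2 probe sets, with KO minus WT differences of 0.55 (95% interval 0.03 to 1.08, adjusted p = 0.297) on 1448272_at and 0.52 (0.06 to 0.98, adjusted p = 0.263) on 1416250_at. On both, each KO 4-week array was above each WT 4-week array, which again held for 10.9% of all. In the same livers 2 of the 8 Kupffer markers described above were called lower in KO (Tyrobp at -1.14 and Csf1r at -0.53). Of the other cell type lists, Hnf4a of hepatocytes was called higher in KO at 0.46 and Dcn lower at -0.53. The part of these cells in the Btg2 values was not tested.

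**Figure D4:**
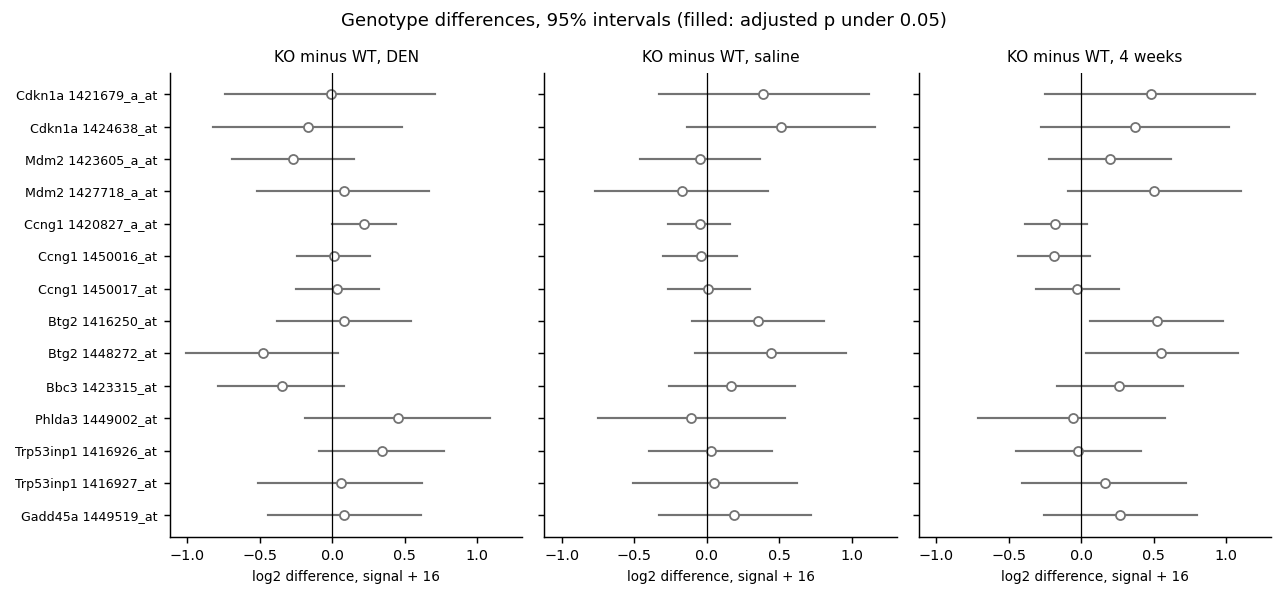
Log2 differences of signal + 16, KO minus WT (horizontal axis), of the 14 tested probe sets (vertical axis) with DEN, with saline and at 4 weeks. Points are limma estimates and bars 95% intervals, and no point is filled because 0 had an adjusted p under 0.05. Btg2 1448272_at lies at -0.48 with DEN, 0.44 with saline and 0.55 at 4 weeks.

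The change of the genotype difference with the injection was tested as an interaction. For DEN against saline 0 of 14 passed, against 0% of all, with 1 of 14 at an unadjusted p under 0.05 (8.03% of all). For DEN against 4 weeks 0 of 14 passed, against 0.762% of all, with 3 of 14 at an unadjusted p under 0.05 (14.0% of all). Btg2 1448272_at had the lowest p of the 14 in both. Its interaction was -0.92 against saline (95% interval -1.67 to -0.18, limma adjusted p = 0.526) and -1.04 against 4 weeks (-1.78 to -0.30, limma adjusted p = 0.181). The Btg2 fall in KO livers with DEN was therefore not shown to differ from WT after adjustment. For Cdkn1a 1424638_at the interactions were -0.68 (-1.60 to 0.24) and -0.54 (-1.46 to 0.38).

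Other genes known as p53 targets in mouse or human cells were counted once each, by their brightest tested probe set. Of 31 such genes, 26 were tested. With DEN against saline in KO livers 2 rose and 2 fell, where 15.1% of all tested probe sets were called (median -0.06, against -0.09 over all tested). Sesn1 and Sesn2 encode sestrins, which restrain growth signalling. Sesn1 fell by 1.04 ± 0.16 (adjusted p = 7.65e-05, and -1.0 after quantile normalization) and Sesn2 fell by 1.04 ± 0.29 (adjusted p = 0.0170, and -0.93 after quantile normalization). Fas, a death receptor gene, rose by 0.45 (0.53 after quantile normalization) and Ephx1, an epoxide hydrolase gene, by 0.36, and Ephx1 was -0.02 and not called after quantile normalization (adjusted p = 0.908).

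In WT livers with DEN against saline, Sesn1 fell by 0.89 ± 0.16 (adjusted p = 0.00083, and -0.84 after quantile normalization) and Ephx1 rose by 0.29 (-0.04 and not called after quantile normalization, adjusted p = 0.887). There 6.54% of all tested probe sets were called. Against 4 weeks, Sesn2 fell by 1.16 ± 0.29 in KO livers (adjusted p = 0.0165), where 8.24% of all were called, and 0 of 26 passed in WT livers, with 4 at an unadjusted p under 0.05 (19.2% of all). Sesn1 rose with saline against 4 weeks, by 0.98 in KO and 1.15 in WT livers (0.97 and 1.09 after quantile normalization), and was not called with DEN against 4 weeks in either genotype. Of all, 9.94% in KO and 8.26% in WT livers were called with saline against 4 weeks. Saline minus 4 weeks in WT livers also had Fas down at -0.48 (-0.54 after quantile normalization) and Ephx1 down at -0.29, which was 0.05 and not called after quantile normalization (adjusted p = 0.833). KO minus WT had 0 of 26 called by limma in each of the 3 conditions, with 2 at an unadjusted p under 0.05 with DEN (8.97% of all), 1 with saline (5.28%) and 5 at 4 weeks (14.9%).

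Of 18 genes that act on p53 or on its modifiers, 16 were tested. With DEN, 4 fell against saline in KO livers, where 8.65% of all tested probe sets were called lower: Sirt1, a deacetylase of p53, at -0.73, Mdm4, an inhibitor related to Mdm2, at -0.65, Trp53bp1, a DNA damage adaptor, at -0.60 and Hipk2, a p53 kinase, at -0.46. After quantile normalization they were -0.68, -0.57, -0.48 and -0.48 in that order, and the call of Trp53bp1 was lost (adjusted p = 0.120). Against 4 weeks 6 fell in KO livers, where 4.71% of all were called lower, led by Trp53bp1 at -0.71, Hipk2 at -0.60, Mdm4 at -0.57 and Crebbp, an acetyltransferase gene, at -0.43. In KO livers the medians of the list against saline and 4 weeks were -0.20 and -0.13, against -0.09 and -0.02 over all tested. In WT livers they were -0.23 and 0.01, against -0.02 and 0.03. After quantile normalization the medians against saline were -0.09 in KO and -0.17 in WT livers. In WT livers Sirt1 fell by 0.35 against saline (-0.30 with an adjusted p of 0.109 after quantile normalization) and Trp53bp1 fell by 0.73 against 4 weeks. There 3.13% and 2.44% of all were called lower, in that order. With saline against 4 weeks Sirt1 rose by 0.54 in WT and 0.35 in KO livers (0.47 and 0.33 after quantile normalization). It was not called with DEN against 4 weeks in WT livers. Usp7, another gene of the list, fell by 0.35 with saline against 4 weeks in KO livers (-0.36 after quantile normalization). Of all, 8.26% in WT and 9.94% in KO livers were called with saline against 4 weeks. KO minus WT had 0 of 16 called by limma in each condition, with 0 at an unadjusted p under 0.05 with DEN, 0 with saline and 2 at 4 weeks (14.9% of all), and the interactions for Mdm4 were -0.33 (adjusted p = 0.687) and -0.31 (adjusted p = 0.490).

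Because Trp53inp1, Sesn2 and other p53 targets also answer to nutrient and endoplasmic reticulum stress, 10 genes of those responses were counted as well. With DEN against saline Hspa5, a chaperone gene, and Xbp1, a stress transcription factor gene, rose in KO (0.55 and 0.51) and WT livers (0.73 and 0.62), and neither was called after quantile normalization (0.01 and 0.10 in KO, 0.17 and 0.26 in WT livers). Against 4 weeks Herpud1, a protein degradation gene, fell by 0.78 in KO livers, while Chac1, a glutathione-degrading enzyme gene, and Xbp1 rose in WT livers by 0.68 and 0.38. Of all tested probe sets, 15.1% in KO and 6.54% in WT livers were called with DEN against saline, and 8.24% and 4.4% with DEN against 4 weeks. With saline against 4 weeks Herpud1 fell by 0.82 and Xbp1 by 0.63 in KO livers (-0.57 and -0.32 after quantile normalization). Hspa5 fell by 0.89 in KO and 0.72 in WT livers, and neither was called after quantile normalization (-0.37 and -0.17). There 9.94% of all in KO and 8.26% in WT livers were called. The part of these stress responses in the Trp53inp1 difference was not tested.

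The genes whose pattern over the 18 arrays was most like that of Cdkn1a 1424638_at were found among the tested probe sets of other single genes by Pearson's r. They were Pnrc1 (r = 0.929, Spearman's rho 0.899), Clic4 (0.922 and 0.926), Cemip2 (0.920 and 0.884), Cyp26a1 (0.919 and 0.899) and Tle1 (0.910 and 0.874). These 5 were taken as the highest of all, they share the arrays' groups and scaling, and the values are descriptions. Without the 2 arrays farthest from the Cdkn1a median r was 0.862 to 0.923, and for deviations from the group means it was 0.766 to 0.896. Of the p53 targets themselves, Trp53inp1 1416926_at had r = 0.862, above 99.9% of tested probe sets, the other Cdkn1a probe set had 0.837, both Btg2 probe sets had 0.46, Bbc3 had 0.472, Gadd45a had -0.563 and Phlda3 had 0.057. The Mdm2 probe sets had 0.296 (1423605_a_at) and -0.0589 (1427718_a_at), the Ccng1 probe sets had -0.740 (1450016_at), -0.313 (1450017_at) and -0.278 (1420827_a_at), and Trp53inp1 1416927_at had 0.439.

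**Figure D5:**
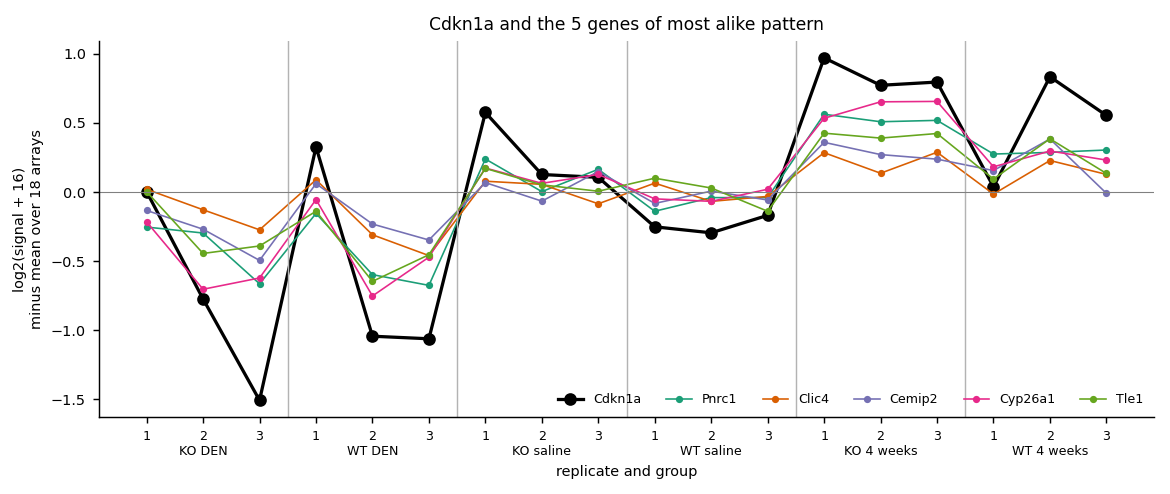
Log2(signal + 16) minus its mean over 18 arrays (vertical axis) for Cdkn1a 1424638_at (black) and the 5 genes most like it, by group and replicate (horizontal axis). Lines only join the points of a gene across arrays, which have no order within a group. All 6 genes are lower on replicates 2 and 3 than on replicate 1 of both DEN groups.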

How the data were processed

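Per the submitters' processing notes, the authors made the deposited intensity values, which are linear, with MAS5, whose version is not given in the sources used here. Their scaling shows as a trimmed mean of 150 on every array (2% of probe sets left out at each end). Here 16 was added before log2, and 64 control probe sets were not used. The filter took probe sets with a mean log2 value of 4.98 or more, the 40th percentile, and left 27022 for the test. limma 3.58.1 (R 4.3.3) was fitted with a coefficient for each group and an intensity trend, which gave 12 residual and 9.19 prior degrees of freedom. Adjusted p-values are its two-sided p-values after Benjamini-Hochberg correction over every tested probe set, 0.05 is the threshold, and "rose" and "fell" refer to values under it. Fold values refer to signal + 16 and understate changes of dim probe sets. The number of arrays limits the precision. The platform annotation names a single gene for 34945 probe sets, several for 932 and none for 9160.

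The members, gene lists and tests were chosen with earlier results of these data known. All member probe sets are given, for other lists the up to 4 largest called changes, and for Cdkn1a the 5 most alike genes. The fit was tested on simulated data in which each probe set had the same spread in every group. That test therefore does not cover the wider spread of Cdkn1a and Trp53inp1 in the DEN groups. Replicate numbers were not taken as pairs, because same-numbered arrays of different groups deviated together with r of only -0.0978 to 0.116. Alternatives were other normalizations, added constants, filters and sets of arrays.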

Additional observations from a re-analysis of the deposited data

How the results depend on the processing

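Of 154 differences of p53 target probe sets, 10 were called and 0 of these changed sign in any alternative, while 56 of the 144 others changed sign in at least 1 alternative without a call and 8 were called in at least 1. Among the calls, Cdkn1a 1424638_at for DEN minus 4 weeks in KO livers was the one kept in every setting and every fit without 1 array. The number called for DEN minus saline in KO livers, 3 as reported, was 1 with quantile normalization, with cyclic loess and without the brightness filter, and 5 without DEN replicate 1 of each genotype, a repeat chosen after seeing the data; leaving out 1 array gave 0 to 5. For DEN minus saline in WT livers, 1 as reported, it was 0 with 1 added, without the filter and with the 2 groups fitted alone. It was 2 without DEN replicate 1 of each genotype, and leaving out 1 array gave 0 to 1. For DEN minus 4 weeks in KO livers, 4 as reported, it was 2 with the groups fitted alone and 1 without the saline arrays or without the 4-week arrays of highest Gapdh ratio; leaving out 1 array gave 1 to 4. For DEN minus 4 weeks in WT livers, 1 as reported, it was 2 with array medians centred, with 64 added, with the replicate number as a block and without DEN replicate 1 of each genotype. It was 0 with the groups fitted alone and without the 4-week arrays of highest Gapdh ratio, and leaving out 1 array gave 0 to 2. For saline minus 4 weeks in KO livers, 1 as reported, it was 0 with quantile normalization, with centred medians and without the 4-week arrays of highest Gapdh ratio, and 2 with the groups fitted alone; leaving out 1 array gave 0 to 1. In WT livers, 0 as reported, it was 1 with the groups fitted alone. The call gained in both genotypes by fitting the groups alone was Cdkn1a 1424638_at, lower with saline than at 4 weeks. It was -0.58 in KO (adjusted p = 0.00844) and -0.71 in WT livers (adjusted p = 0.0241). Genotype differences and interactions stayed at 0 in each alternative run. Fewer arrays or more probe sets tested lower the power by construction, and otherwise the cause of these changes was not tested. The replicate block added Cdkn1a 1424638_at for DEN minus 4 weeks in WT livers (adjusted p = 0.0415) and Trp53inp1 1416926_at in KO livers (adjusted p = 0.0406) and dropped Ccng1 1420827_a_at in KO livers (adjusted p = 0.0512). The replicate numbers gave no pairing: 2 of 45 same-number pairs deviated together with r over 0.1, and 6 of 18 arrays correlated best with their own number. Dim probe sets (Phlda3, Trp53inp1 1416927_at, Mdm2 1427718_a_at) had wide intervals and could not show small changes.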
